A study of Mus musculus with 4 samples.

Results

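The Dlx homeobox genes were described in the larynx of mouse embryos that lack Shh, the ligand that activates Hedgehog (HH) signaling. The family was taken as the 6 genes listed under the names Dlx1, Dlx2, Dlx3, Dlx4, Dlx5 and Dlx6, out of 46983 gene IDs in each expression table. RNA-seq was performed on larynx tissue dissected at E10.5 (32 to 35 somites), and 3 larynxes were pooled for each library. The Shh-/- group held pools 1 and 2, from embryos with the Shhtm1amc null allele on a Swiss Webster background, and the WT group held pools 4 and 6 from Swiss Webster embryos; the labels name no treatment. The sample labels write the genotype of pools 1 and 2 as heterozygous, whereas the design text gives Shh-/-, and the latter name was used. Each pool combined all cell types of the dissected tissue, so fewer cells of a type and less RNA per cell cannot be told apart.

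DLX proteins are homeodomain transcription factors related to Distal-less of the fruit fly. Their genes lie as linked pairs that are transcribed toward each other and share enhancers, and the members of a pair are often expressed in the same cells. In the pharyngeal arches they are expressed in nested domains of the neural crest-derived mesenchyme, where Dlx1 and Dlx2 extend along the whole arch and Dlx5 and Dlx6 mark its lower part. Dlx genes are also known from the surface ectoderm, the ectodermal ridge of the limb bud, bone and the GABAergic neurons of the forebrain.

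In mm10, Dlx1 lies on the forward strand at chr2:71528113-71533981 and Dlx2 on the reverse strand at chr2:71543408-71546754. Dlx3 (chr11:95120119-95125296, forward) faces Dlx4 (chr11:95140447-95146263, reverse), and Dlx6 (chr6:6863334-6868568, forward) faces Dlx5 (chr6:6877805-6882085, reverse). All 6 genes are annotated as protein-coding. To see whether reads could be shared between paralogs, the homeoboxes in the coding exons of the GENCODE M21 transcripts were compared. The last 60 bases of each homeobox, which encode the helix that contacts DNA, are shown because they carry the DNA-binding residues the members share. Capitals mark bases that differ from the commonest base of the 6 genes at that position; in a tie, the alphabetically first base was taken as the commonest.
Dlx1: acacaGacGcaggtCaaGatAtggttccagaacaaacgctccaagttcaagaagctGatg
Dlx2: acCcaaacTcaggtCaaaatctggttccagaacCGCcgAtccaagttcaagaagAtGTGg
Dlx3: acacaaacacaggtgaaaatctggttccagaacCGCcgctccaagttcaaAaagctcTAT
Dlx4: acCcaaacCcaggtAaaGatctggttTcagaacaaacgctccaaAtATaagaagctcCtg
Dlx5: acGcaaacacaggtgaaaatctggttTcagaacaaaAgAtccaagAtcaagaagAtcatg
Dlx6: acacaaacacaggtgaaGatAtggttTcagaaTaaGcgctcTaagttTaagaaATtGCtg
Over the whole homeobox of 180 bases, identity between members ranged from 66.1% for Dlx3 and Dlx6 to 81.7% for Dlx2 and Dlx3. Linked genes were not the most alike, at 73.9% for Dlx1 and Dlx2, 71.7% for Dlx3 and Dlx4 and 73.3% for Dlx5 and Dlx6. The longest run of identical bases in any pair of homeoboxes was 23 bases, and no stretch of 75 bases, the read length inferred from the tables, occurred in the transcripts of more than 1 member. A read that matched 1 Dlx transcript exactly therefore matched no other member over its whole length.

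The targeted gene was examined first. Shh was listed at 10.4 and 10.8 TPM (transcripts per 1000000, scaled for length) in Shh-/- pools 1 and 2, against 23.7 and 42.1 TPM in WT pools 4 and 6. Shh was thus lower in each Shh-/- pool than in either WT pool (log2 fold change -1.49, SE 0.28, adjusted p = 0.0895 in limma, a linear model that shares variance across genes, with Benjamini-Hochberg adjustment), and transcript was still listed in them. Ptch1, an HH receptor gene that HH signaling itself induces, fell by 2.0 on the log2 scale (SE 0.12, limma adjusted p = 0.0319). The libraries held 1372, 3128, 2845 and 2972 megabases of aligned sequence in the order Shh-/- 1, Shh-/- 2, WT 4 and WT 6, so Shh-/- pool 1 was the shallowest. Fold changes below are differences of mean log2(TPM + 1), Shh-/- minus WT, over 2 pools per group, with p-values adjusted over the 16972 tested genes, those whose mean TPM was 1 or more.

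Dlx transcripts were listed at higher levels in the larynx without Shh. Of the 5 Dlx genes that could be tested, all had both Shh-/- pools above both WT pools, an arrangement seen in 38% of all tested genes (58.3% had a log2 fold change above 0). Dlx3, with a WT mean of 0.578 TPM, passed the filter on TPM only through its Shh-/- pools. Its place in this count and in those that follow therefore depended on its being higher in Shh-/-. The log2 fold change exceeded 1 for 4 of the 5, compared with 3.64% of tested genes. However, 0 of the 5 passed an adjusted p of 0.05 in limma, a threshold that 0.56% of tested genes passed in this direction, and 4 of the 5 had an unadjusted p under 0.05, compared with 17.5% of tested genes in this direction and 24.8% in either. At an adjusted p of 0.10, which 3.95% of tested genes passed in this direction, Dlx1 alone passed. Dlx4, the remaining member, was too low to be tested.

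**Figure D1:**
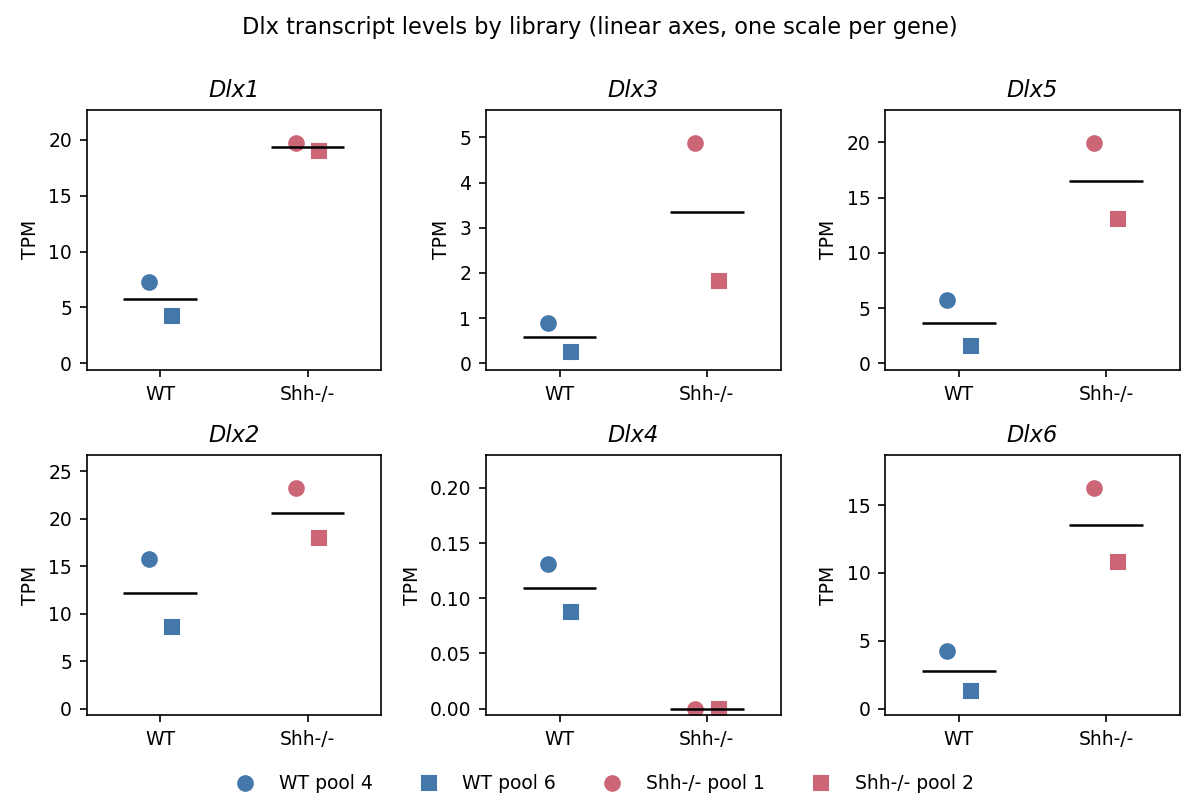
TPM (linear vertical axes, one scale per gene) of the 6 Dlx genes in WT pools 4 and 6 and Shh-/- pools 1 and 2; each point is 1 library of 3 pooled larynxes and each black line the group mean. In every panel but that of Dlx4, where the Shh-/- pools are listed at 0, both Shh-/- points lie above both WT points, and WT pool 4 lies above WT pool 6 throughout.

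Dlx1 is expressed along the proximal to distal extent of the arch mesenchyme. It was listed at 19.7 and 19.0 TPM in Shh-/- pools 1 and 2, against 7.25 and 4.2 TPM in WT pools 4 and 6. The Shh-/- pools were nearly equal (mean 19.4 ± 0.484 TPM, SD, n = 2) and the WT pools lay well below them (5.72 ± 2.15 TPM, SD, n = 2). This gave a log2 fold change of 1.64 (SE 0.25, 95% interval 0.98 to 2.29), and its adjusted p of 0.0715 in limma was the lowest of the family. About 398, 903, 308 and 206 reads lay behind these values, estimated from coverage and exon length, which makes Dlx1 one of the better sampled members.

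Dlx2 acts largely in parallel with Dlx1 in the arches. Its levels were 23.3 and 18.0 TPM in Shh-/- pools 1 and 2, and 15.8 and 8.57 TPM in WT pools 4 and 6. The groups did not overlap, but WT pool 4 came within a few TPM of Shh-/- pool 2. With means of 20.6 ± 3.72 and 12.2 ± 5.12 TPM (SD, n = 2 each), the log2 fold change was 0.76 (SE 0.31, 95% interval -0.04 to 1.56, limma adjusted p = 0.216), the smallest of the tested members. Without WT pool 6 it was 0.35 and without WT pool 4 it was 1.17.

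Dlx3 is known from the epidermis, the placenta and the distal arches. It was listed at 4.88 and 1.82 TPM in Shh-/- pools 1 and 2, against 0.904 and 0.252 TPM in WT pools 4 and 6. Shh-/- pool 1 stood above the rest, and Dlx3 was the 1 tested member whose Shh-/- pools differed by more than its WT pools (1.06 against 0.61 on the log2 scale). Its log2 fold change was 1.40 (SE 0.44, 95% interval 0.27 to 2.53, limma adjusted p = 0.156). Estimated reads were 112, 98.7, 44.7 and 13, so the WT values rest on few reads. Without Shh-/- pool 1 the log2 fold change was 0.87 and without Shh-/- pool 2 it was 1.93.

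Dlx4, which is partnered with Dlx3, was listed at 0 in each Shh-/- pool and had 0.131 and 0.0876 TPM in WT pools 4 and 6. The WT values correspond to about 3.37 and 3.36 reads. A difference in Dlx4 was not detectable at this depth, and it was the 1 member whose order was the opposite of the others.

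Dlx5 and Dlx6 specify lower jaw identity in the first arch. Dlx5 was listed at 19.95 and 13.04 TPM in Shh-/- pools 1 and 2, against 5.71 and 1.56 TPM in WT pools 4 and 6. Dlx6 was listed at 16.3 and 10.8 TPM in Shh-/- pools 1 and 2, against 4.23 and 1.296 TPM in WT pools 4 and 6. Both genes were high in Shh-/- pool 1, intermediate in Shh-/- pool 2, low in WT pool 4 and lowest in WT pool 6, without overlap of the groups.

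Dlx5 and Dlx6 had the largest log2 fold changes of the family. That of Dlx5 was 2.05 (SE 0.50, 95% interval 0.75 to 3.34, limma adjusted p = 0.119), with means of 16.5 ± 4.89 and 3.63 ± 2.93 TPM (SD, n = 2 each). That of Dlx6 was 2.04 (SE 0.45, 95% interval 0.89 to 3.19, limma adjusted p = 0.104), with means of 13.5 ± 3.88 and 2.76 ± 2.07 TPM. A difference at least as large and in the same direction was found in 0.519% and 0.53% of tested genes. The adjusted p of both remained above that of Dlx1, whose difference was smaller and whose pools were closer to each other.

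The WT pools differed from each other in Dlx5 by 1.39 and in Dlx6 by 1.19 on the log2 scale. Only 1.63% and 2.23% of tested genes differed by as much between these 2 pools. Against WT pool 4 alone the log2 fold change of Dlx5 was 1.35 and that of Dlx6 was 1.45, whereas against WT pool 6 alone they were 2.74 and 2.63. The direction was the same with either pool, but the size rested on which WT pool was used. The pools also differed in RNA integrity number (7.7 in WT 4 and 9 in WT 6, 8 and 7.7 in Shh-/- 1 and 2). Total RNA was 210 ng in WT 4 and 310 ng in WT 6, and 260 and 200 ng in Shh-/- 1 and 2. The part of these differences in the gap between the WT pools was not tested. In WT pool 6 about 43.9 reads were estimated for Dlx5 and 28.4 for Dlx6.

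**Figure D2:**
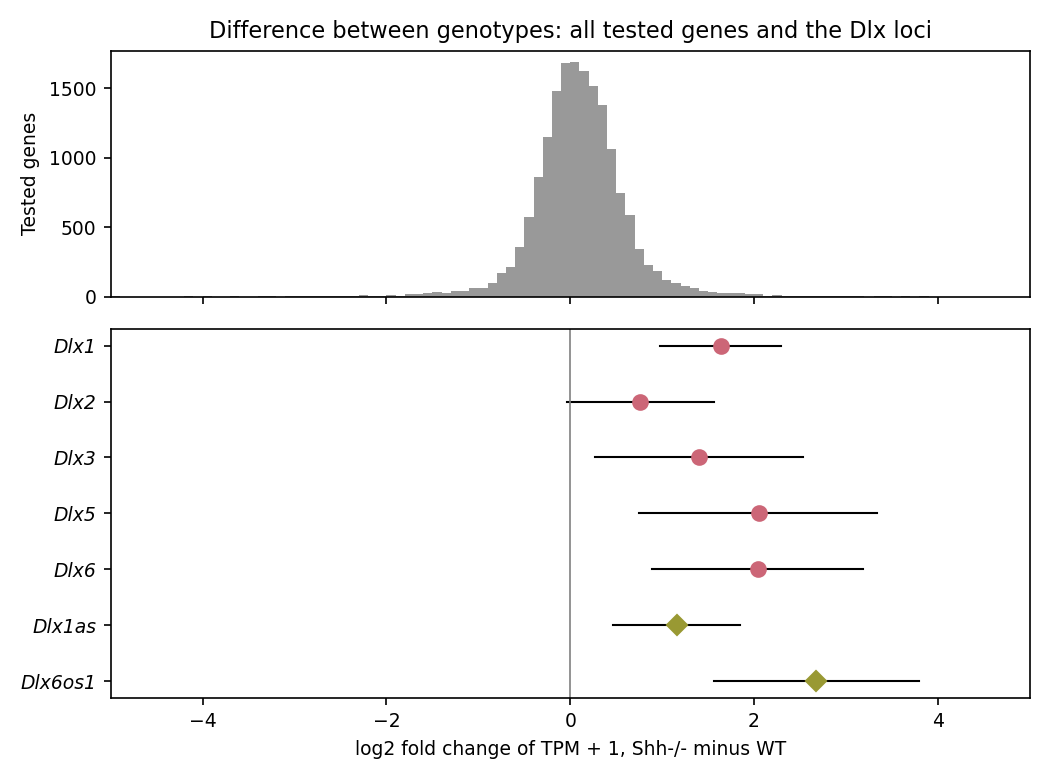
Top, number of tested genes (vertical axis) by log2 fold change of TPM + 1, Shh-/- minus WT (horizontal axis, bins of 0.1). Bottom, the same quantity for the 5 tested Dlx genes (circles) and 2 antisense transcripts (diamonds) with 95% intervals from limma; all 7 lie above 0, and the interval of Dlx2 alone, from -0.04 to 1.56, includes 0.

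TPM is scaled for transcript length, so the levels of the members were also set in order. In the WT larynx, Dlx2 was the most abundant by mean TPM, followed by Dlx1, Dlx5, Dlx6, Dlx3 and Dlx4. The same order was found within each of the 2 WT pools. Across these pools the ranges of Dlx1, Dlx5 and Dlx6 overlapped, that of Dlx1 with that of Dlx6 only narrowly. In the Shh-/- larynx the order of the means was the same, but the ranges of Dlx2, Dlx1 and Dlx5 overlapped and those of Dlx5 and Dlx6 overlapped. Within Shh-/- pool 1, Dlx5 (19.95 TPM) lay above Dlx1 (19.72 TPM), and within Shh-/- pool 2, Dlx1 (19.03 TPM) lay above Dlx2 (18.0 TPM). Dlx5 lay above Dlx6 within both.

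The 6 genes summed to 84.1 and 62.7 TPM in Shh-/- pools 1 and 2 and to 34.0 and 16 TPM in WT pools 4 and 6. Dlx2 alone made up 46.5% and 53.7% of this sum in the WT pools and 27.7% and 28.7% in the Shh-/- pools. Dlx5 and Dlx6 together made up 29.2% and 17.9% in the WT pools and 43.1% and 38.0% in the Shh-/- pools. In each Shh-/- pool no single gene reached the share that Dlx2 had in the WT pools. Within each genotype the pools kept an order: 6 of 6 members were higher in WT pool 4 than in WT pool 6 (55.5% of tested genes), and 5 of 5 detected members were higher in Shh-/- pool 1 than in Shh-/- pool 2 (57.9%).

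The linked pairs were then compared as units. The sum of Dlx1 and Dlx2 was 43.0 and 37.0 TPM in Shh-/- pools 1 and 2 and 23.1 and 12.8 TPM in WT pools 4 and 6, a ratio of means of 2.23. The sum of Dlx3 and Dlx4 was 4.88, 1.82, 1.04 and 0.339 TPM in the same order, a ratio of 4.88, and that of Dlx5 and Dlx6 was 36.2, 23.8, 9.94 and 2.86 TPM, a ratio of 4.69. Leaving out 1 library in turn gave log2 ratios of means from 1.41 (without Shh-/- 1) to 3.30 (without WT 4) for Dlx3 and Dlx4, against 2.29 with all. For Dlx5 and Dlx6 they ran from 1.59 (without WT 6) to 3.39 (without WT 4), against 2.23, and for Dlx1 and Dlx2 from 0.79 (without WT 6) to 1.65 (without WT 4), against 1.16. For all 3 pairs the groups did not overlap (two-sided exact permutation test, p = 0.33 each, which is the smallest p that 2 against 2 pools can give, adjusted p = 0.33 over the 3 pairs).

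Members of a pair did not always keep the same ratio. The log2 ratio of Dlx5 to Dlx6, computed on TPM + 1, was 0.28 and 0.25 in Shh-/- 1 and 2, against 0.36 and 0.16 in WT 4 and 6, and the groups overlapped (exact permutation p = 1). The log2 ratio of Dlx1 to Dlx2 was -0.23 in Shh-/- 1 and 0.08 in Shh-/- 2, against -1.03 in WT 4 and -0.88 in WT 6. Here the groups did not overlap (exact permutation p = 0.33, the smallest possible, adjusted p = 0.495 over the 3 pairs): Dlx1 was near Dlx2 in the Shh-/- larynx and below it in the WT larynx. The ratio of Dlx3 to Dlx4 followed Dlx3 alone, because Dlx4 was close to 0.

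**Figure D3:**
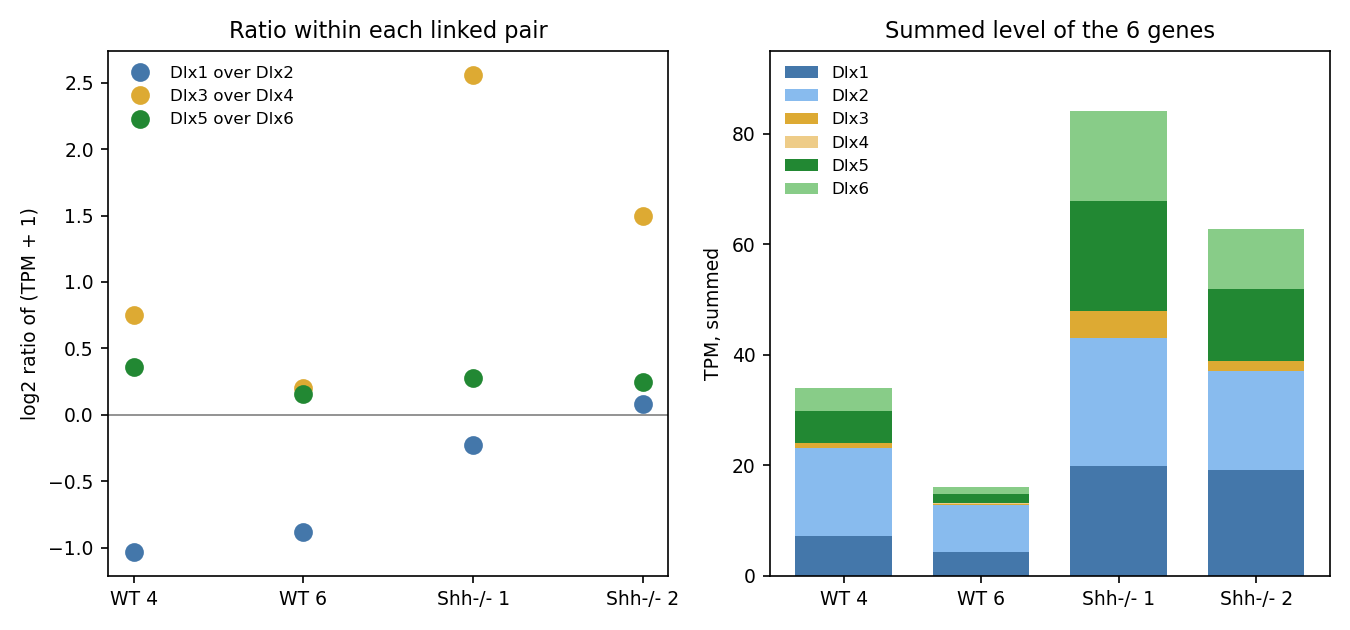
Left, log2 ratio of TPM + 1 (vertical axis) of the first to the second member of each linked pair in the 4 libraries; the points of Dlx5 over Dlx6 stay between 0.16 and 0.36, while those of Dlx1 over Dlx2 lie lower in both WT pools. Right, TPM of the 6 genes stacked by library (linear axis from 0), with totals of 34.0, 16, 84.1 and 62.7 from left to right.

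Noncoding transcripts of the Dlx loci were examined next. Dlx6os1, also known as Evf2, is a long noncoding RNA that runs antisense across Dlx6 (chr6:6820189-6871592, reverse strand) and is known to act on Dlx5 and Dlx6 in the forebrain. It was listed at 15.5 and 9.70 TPM in Shh-/- pools 1 and 2, against 2.02 and 0.431 TPM in WT pools 4 and 6, the same order of libraries as Dlx5 and Dlx6. Its log2 fold change of 2.67 (SE 0.43, 95% interval 1.56 to 3.79, limma adjusted p = 0.0736) was larger in value than those of the 5 tested Dlx genes, a difference that was not tested.

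Because Dlx6os1 had the largest fold change of these transcripts, the 250 bases before one of its RefSeq transcript starts are shown (GRCm38.p6, chr6:6861684-6861933, reverse strand, 5′ to 3′). A transcript from this start runs away from Dlx6 and does not cross it. The other start, at chr6:6869533, lies beyond the far end of Dlx6, and its window is not shown because it overlaps a Dlx6os1 exon. Which start the fold change came from was not tested. Capitals mark matches to TAATTA and TAATTG, searched on both strands, which contain the core that homeodomain proteins including DLX bind.
Dlx6os1: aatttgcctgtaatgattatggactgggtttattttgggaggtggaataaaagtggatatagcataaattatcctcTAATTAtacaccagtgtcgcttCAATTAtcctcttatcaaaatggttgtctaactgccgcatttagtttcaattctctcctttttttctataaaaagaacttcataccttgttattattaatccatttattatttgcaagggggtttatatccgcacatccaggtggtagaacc
This window held 1 match to each motif. The window of the other Dlx6os1 start held 2 matches to TAATTA and 0 to TAATTG, and those of Dlx1, Dlx2, Dlx6os2 and Dlx4os held 0 to either. TAATTA occurred in 5.29% and TAATTG in 8.0% of all 32851 RefSeq promoter windows, which run from 250 bases before to 50 bases after a start. GACCACCCA, the consensus of the GLI factors that act at the end of HH signaling, occurred in 0.253% of these windows and in none of those matched to Dlx1, Dlx2 or the noncoding transcripts. Windows were matched for 2 of the 6 members and 3 of the 4 noncoding transcripts named after them.

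Dlx1as runs antisense across Dlx1 (chr2:71516454-71537891). It was listed at 8.72, 5.70, 3.10 and 2.18 TPM in Shh-/- 1, Shh-/- 2, WT 4 and WT 6, with a log2 fold change of 1.16 (SE 0.27, limma adjusted p = 0.111). Only about 5.17 to 13.7 reads per library were estimated for it from coverage. In Shh-/- 1 its unscaled exon coverage was 0.402 beside 8.72 TPM, whereas Dlx3, a gene with 1 transcript, had 3.211 beside 4.88 TPM. Coverage and TPM thus do not match for Dlx1as, and the number of reads behind its TPM is uncertain. Of the 75-base stretches of its transcripts 17.0% were complementary to Dlx1 exons. Whether the strand of the reads was used in quantification is not given in the sources used here, so reads of Dlx1 and Dlx1as may not be separable. With exon coverage, scaled to a sum of 1000000, in place of TPM, its log2 fold change was 0.44. On that scale its values were 0.882, 0.575, 0.317 and 0.228, so the added 1 lowers the fold change, and the ratio of the group means was 2.67, compared with 2.73 for TPM. Dlx6os2 was listed at no more than 0.674 TPM in any library and Dlx4os at 0 in all 4.

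To ask whether the difference extended along the chromosomes, genes within 500 kb of each pair were compared. Around Dlx5 and Dlx6, 3 other genes were tested and all were within -0.41 to -0.04 on the log2 scale, including Sdhaf3 at 73.9 kb (-0.41) and Gm5873 at 127 kb on the other side (-0.09). Around Dlx1 and Dlx2, 11 other genes had log2 fold changes from -0.42 to 0.47, with a median of -0.02. The nearest, Metap1d, lies only 2.92 kb from Dlx1 and was listed at 19.5, 20.6, 20.4 and 20.2 TPM in Shh-/- 1, Shh-/- 2, WT 4 and WT 6, with overlapping groups (log2 fold change -0.02, limma adjusted p = 0.945). On the other side, Itga6 at 199 kb had a log2 fold change of 0.47 (limma adjusted p = 0.154). None of these 14 genes passed the test in limma. Of the 11 around Dlx1 and Dlx2, 2 had an unadjusted p under 0.05, which 24.8% of all tested genes had in either direction.

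Around Dlx3 and Dlx4, 14 of 16 other genes were higher in Shh-/-, compared with 58.3% of all tested genes. The median log2 fold change of these 16 was 0.36, compared with 0.08 over all tested genes. The nearest on each side, Itga3 at 43.3 kb and Kat7 at 128 kb, had log2 fold changes of 0.00 and 0.04. Ngfr, a receptor gene of neural crest cells at 423 kb, was the 1 neighbour called (1.75, SE 0.19, limma adjusted p = 0.047), in a background of 0.725% called in either direction. Its call was lost with a pseudocount of 0.1 (adjusted p = 0.0539), with the GC content and length correction (1.41, adjusted p = 0.0549) and in eBayes without trend (adjusted p = 0.06). An unadjusted p under 0.05 in limma was found for 6 of the 16, compared with 24.8% of all tested genes in either direction.

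**Figure D4:**
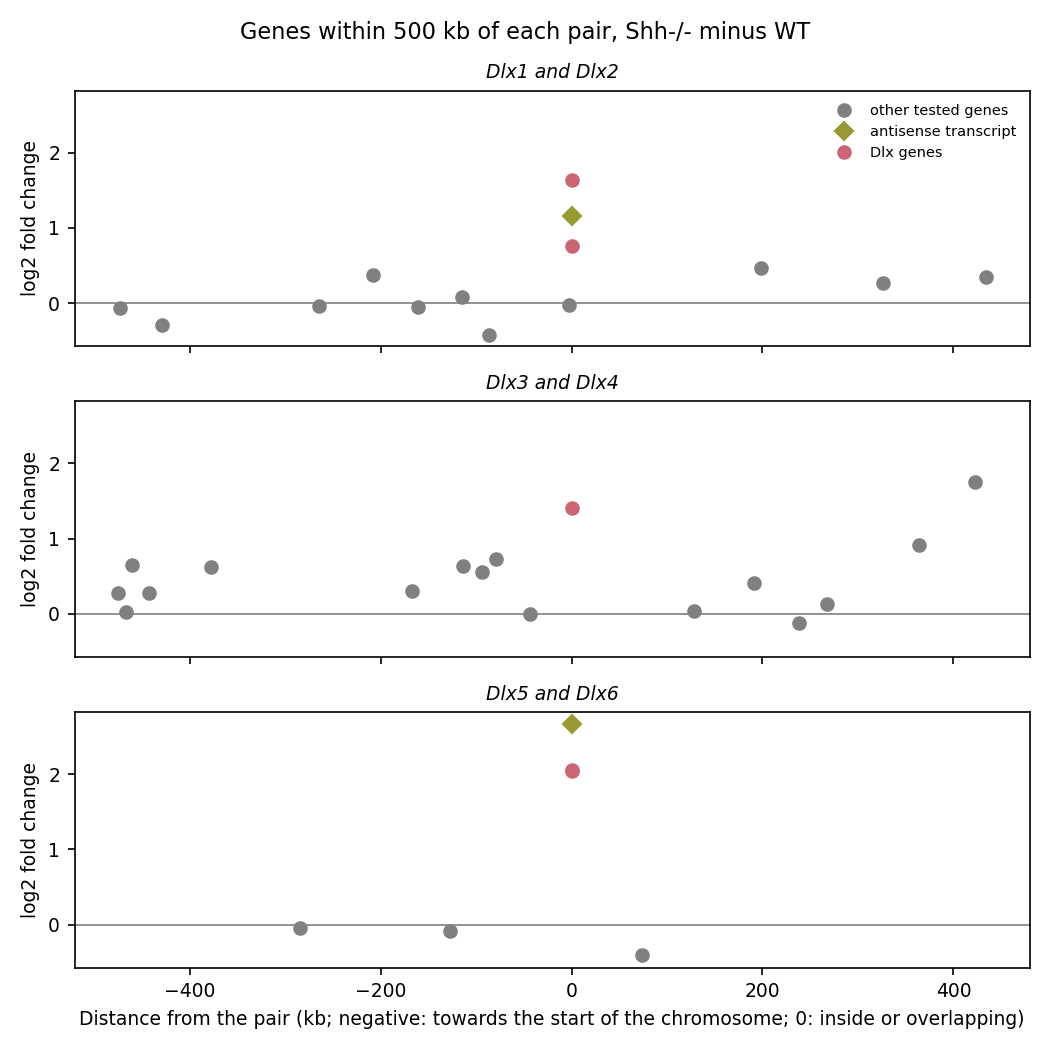
Log2 fold change of TPM + 1, Shh-/- minus WT (vertical axis), of tested genes within 500 kb of each Dlx pair by their distance from it in kb (horizontal axis, negative toward the start of the chromosome); red, Dlx genes; diamonds, antisense transcripts; grey, other genes. Around Dlx1 and Dlx2 and around Dlx5 and Dlx6 all grey points lie between -0.42 and 0.47, below the Dlx genes.

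Genes with the most similar pattern were sought for the most abundant member of each pair, by the Euclidean distance of log2(TPM + 1) values centred on their mean over the 4 libraries. For Dlx5 the nearest of all tested genes was its linked partner Dlx6 (distance 0.14). The next was Fgf8 (0.15), a growth factor gene of the arch ectoderm and endoderm, at 17.7, 10.4, 5.24 and 1.16 TPM in Shh-/- 1, Shh-/- 2, WT 4 and WT 6, followed by the homeobox gene Nkx2-6 (0.23) at 79.2, 54.0, 22.0 and 9.97 TPM. Each of these genes shows the same descending order as Dlx5, including the gap between the WT pools, which follows from their choice by distance to Dlx5.

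For Dlx2 the nearest genes were Smad7 (0.09), an inhibitor of TGF-beta signaling, Pcdh1 (0.11) and Wdr81 (0.12). Its linked partner Dlx1 stood at rank 7462 (distance 0.91). From Dlx5, Dlx1 was at rank 41 (distance 0.76) and Dlx2 at rank 494 (distance 1.36). The values were not scaled, so the distance includes the size of the change, and ranks around Dlx2 and Dlx5 cannot be compared. For Dlx3 the nearest genes were Irs4 (0.13), Gm24894 (0.22) and Dlg4 (0.25). They shared its high value in Shh-/- pool 1, which follows from how they were chosen. With 4 libraries these distances only describe the patterns.

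Genes that act before the Dlx genes in the arches were examined as lists. Among all tested genes, for comparison with each list below, 58.3% were higher in Shh-/-, 0.56% were called higher and 0.165% called lower. An unadjusted p under 0.05 in limma was found for 17.5% of tested genes in the higher direction and 24.8% in either. Endothelin-1 signaling induces Dlx5 and Dlx6 in the lower arch, and of its 7 listed components 6 were higher and 1 lower in Shh-/-, with a median log2 fold change of 0.44, or 0.14 after correction for GC content and length. None passed the test in limma, while 3 had an unadjusted p under 0.05. Among the most abundant, the G protein gene Gna11 had a log2 fold change of 0.44 (adjusted p = 0.164), the phospholipase gene Plcb3 one of 0.51 (adjusted p = 0.169) and the endothelin-converting enzyme gene Ece1 one of 0.23 (adjusted p = 0.369), whose sign changed with that correction. Chosen after their values were seen, the ligand gene Edn1 was listed at 29.3 and 31.7 TPM in Shh-/- 1 and 2, against 18.2 and 12.9 TPM in WT 4 and 6 (0.95, adjusted p = 0.0975). The receptor gene Ednra went the other way, at 28.1 and 23.7 TPM in Shh-/- 1 and 2, against 30.9 and 33.9 TPM in WT 4 and 6 (-0.32, adjusted p = 0.242).

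BMP and FGF ligands also act on Dlx expression. All 3 listed ligand genes had a higher mean in Shh-/-, and none passed the test in limma, while 2 had an unadjusted p under 0.05. Fgf8 had a log2 fold change of 1.99 (SE 0.56, adjusted p = 0.138) and Bmp4 one of 0.62 (SE 0.13, adjusted p = 0.0987). Bmp7, at 0.10, overlapped between the groups and its sign changed with quantile normalization, median centring and a correction for GC content and length.

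Of 4 genes for proteins that bind DLX factors, 3 were higher, with a median of 1.25. Msx1, whose protein shares target sites with DLX proteins and represses transcription, was listed at 74.6, 36.3, 9.02 and 3.47 TPM in Shh-/- 1, Shh-/- 2, WT 4 and WT 6 (log2 fold change 2.99, SE 0.51, limma adjusted p = 0.0784). Msx2 had a log2 fold change of 1.72 (SE 0.34, adjusted p = 0.0933), and neither overlapped between the groups. Maged1, by contrast, was listed between 502 and 544 TPM in all 4 libraries (0.00, adjusted p = 0.999), with a sign that changed with the scaling. None of the 4 passed the test in limma, while 3 had an unadjusted p under 0.05.

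Genes that depend on DLX factors in the lower arch did not all differ in 1 direction. Of 9 listed genes 7 were higher and 2 lower in Shh-/-, the median log2 fold change was 0.81 and 1 passed the test. This gene was Alx4, a homeobox gene of craniofacial and limb mesenchyme, listed at 16.8 and 10.8 TPM in Shh-/- 1 and 2, against 0.766 and 0.312 TPM in WT 4 and 6 (3.25, SE 0.29, limma adjusted p = 0.0412). Its call was lost with a pseudocount of 0.1 (4.51, adjusted p = 0.0513). Corrected for GC content and length, the median of the list was 0.52.

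Hand1 and Hand2 were chosen from this list after their values were seen. Hand1, which is activated below the Dlx genes in the distal arch, had the opposite order, with 6.67 and 5.42 TPM in Shh-/- 1 and 2, against 18.1 and 15.8 TPM in WT 4 and 6 (-1.35, SE 0.17, adjusted p = 0.0595). Hand2, which lies between the Dlx genes and Hand1 in this pathway, had a log2 fold change of 0.81 (adjusted p = 0.131).

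Genes that Dlx5 and Dlx6 restrain mark the upper arch. Both that could be tested, Foxl2 (log2 fold change 1.31, limma adjusted p = 0.134) and Irx5 (0.43, adjusted p = 0.17), were higher in each Shh-/- pool than in either WT pool, and their median was 0.87. After correction for GC content and length the median was 0.49, and Irx5 was at 0.04 (adjusted p = 0.872). Pou3f3, below the filter, was listed at 1.60 and 1.73 TPM in Shh-/- 1 and 2, against 0.227 and 0.163 TPM in WT 4 and 6. None of these genes passed the test, while both tested genes had an unadjusted p under 0.05.

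In lists from 2 other tissues in which Dlx genes act, most genes were below the filter on TPM. Of 10 genes expressed with Dlx1 and Dlx2 in forebrain GABAergic neurons, 2 could be tested, and Gsx1 and Gsx2 were among those listed at 0 in all 4 libraries. Lhx6 (log2 fold change 1.42, SE 0.18, limma adjusted p = 0.0592) and Lhx8 (1.63, SE 0.34, adjusted p = 0.101), the tested genes, are also expressed in arch mesenchyme. Of 5 bone genes that act downstream of Dlx5, Alpl alone could be tested, and it overlapped between the groups (-0.28, adjusted p = 0.407).

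**Figure D5:**
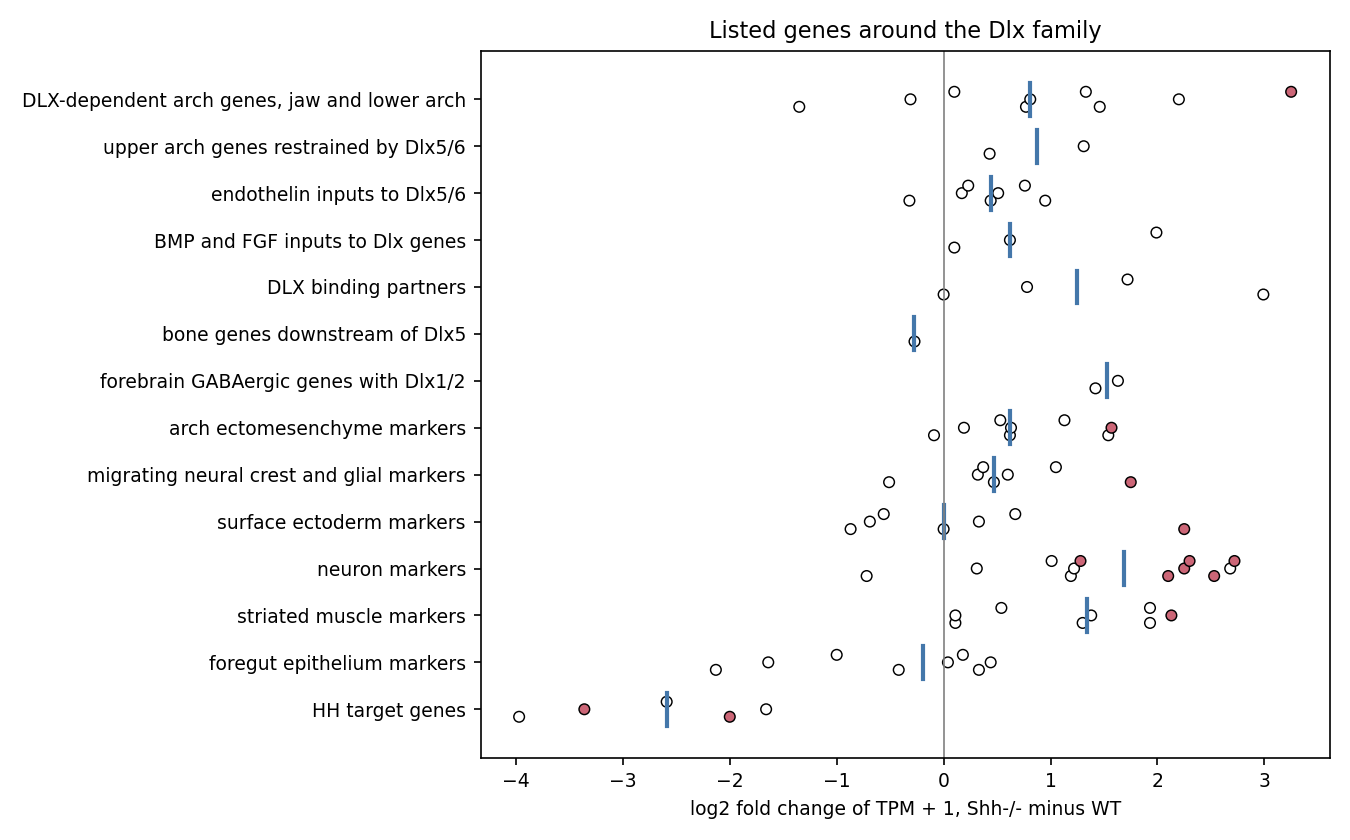
Log2 fold change of TPM + 1, Shh-/- minus WT (horizontal axis), of the tested genes in each list (rows); filled points have a limma adjusted p under 0.05, open points do not, and blue bars mark list medians. The median of the HH target genes lies at -2.59, that of the neuron markers at 1.69 and that of the lower arch genes at 0.81.

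All 8 listed markers of foregut epithelium and all 8 of arch ectomesenchyme, tissues that form the larynx, were detected. Arch ectomesenchyme markers, the cells in which Dlx genes are best known, summed to 726 and 620 TPM in Shh-/- 1 and 2, against 412 and 379 TPM in WT 4 and 6. Of 8 listed, 7 were higher, compared with 58.3% of tested genes, and the list median was 0.63 on the log2 scale. Twist1 rose by 1.57 (SE 0.12, limma adjusted p = 0.0323). Migrating neural crest and glial markers summed to 208, 176, 155 and 132 TPM in Shh-/- 1, Shh-/- 2, WT 4 and WT 6, with 6 of 7 tested higher, a median of 0.47 and 1 called (Ngfr).

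Surface ectoderm markers, another site of Dlx expression, summed to 240, 208, 214 and 226 TPM and overlapped between the groups. Most of each sum came from Cldn6, at 190, 165, 181 and 172 TPM. The median log2 fold change of the list was 0.00, with 4 of 7 tested markers higher and 3 lower. Wnt6 rose by 2.25 (limma adjusted p = 0.0383) and the keratin gene Krt14 was at 0 in 3 of the 4 libraries. The 3 lower markers, named after their values were seen, were Krt5 (-0.87, limma adjusted p = 0.144), Trp63 (-0.69, adjusted p = 0.279) and Perp (-0.56, adjusted p = 0.255). Foregut epithelium markers summed to 496, 433, 452 and 467 TPM, also with overlap, and 4 of 8 were higher. None of these 8 passed the test in limma, while 4 had an unadjusted p under 0.05 (24.8% of tested genes), 1 higher and 3 lower. The most abundant, Krt18, Krt8 and Epcam, had log2 fold changes of 0.18, 0.44 and 0.33. The 4 lower markers, named after their values were seen, were Foxa2 (-2.13, limma adjusted p = 0.0602), Nkx2-1 (-1.64, adjusted p = 0.0715), Foxa1 (-1.0, adjusted p = 0.102) and Cdh1 (-0.42, adjusted p = 0.311).

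Neuron markers summed to 927 and 1010 TPM in Shh-/- 1 and 2, against 336 and 296 TPM in WT 4 and 6. Of 12 listed, 11 were higher, compared with 58.3% of tested genes, and the median was 1.69. The test was passed by 6 (Tubb3, Stmn2, Elavl3, Nefl, Gap43 and Ina), compared with 0.56% of tested genes in this direction. Of these 6, Elavl3 and Nefl did not pass with the GC content and length correction (adjusted p = 0.0573 and 0.0541), and Tubb3, Elavl3, Nefl and Gap43 did not pass in eBayes without trend. Striated muscle markers summed to 213, 331, 122 and 122 TPM, all 8 tested had a higher mean with a median of 1.34, and Myh7 passed the test (2.13, limma adjusted p = 0.0422). Of the 8, 5 had both Shh-/- pools above both WT pools, compared with 38% of tested genes. Myog (0.11), Myod1 (0.54) and Des (0.11) overlapped between the groups. All 5 HH target genes were lower, with a median of -2.59, and Ptch1 and Hhip (-3.36, adjusted p = 0.0323) fell. The part of these differences in tissue makeup, and of the difference in depth of Shh-/- pool 1, in the Dlx values was not tested.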

How the data were processed

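Poly(A)-selected, directional libraries were sequenced single-end, and per the labels the authors aligned reads to mm10 with HISAT2 2.1.0 and quantified genes with StringTie 1.3.6. The annotation release and the strand setting are not given in the sources used here. The deposited tables give mean exon coverage (signal) per gene, FPKM values (as StringTie gives them per gene) and TPM values (FPKM scaled to a sum of 1000000), all computed by the authors; no read counts were used. Library depth was computed from the ratio of coverage to FPKM in single-transcript genes, and approximate reads from coverage and exon length, with a read length of 75 bases, at which coverage gave the most whole reads.

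TPM was summed per gene ID, and the 16972 genes whose mean TPM was 1 or more were tested on log2(TPM + 1) with limma 3.58.1 (R 4.3.3; eBayes with trend), Shh-/- minus WT, with Benjamini-Hochberg adjustment and a threshold of 0.05. The procedure was tested on simulated data. Of 46983 gene IDs, 46488 matched GENCODE M21, from which exon lengths, GC content and transcripts were taken; promoters came from RefSeq (GRCm38.p6). Pools were treated as replicates of separate embryos, and p-values cover the spread between 2 pools per genotype. Pairs were tested by exact permutation.

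Named genes were the Dlx genes and their noncoding transcripts, list genes past the threshold or otherwise the 3 most abundant, the nearest tested neighbours, the 3 most similar genes, and Shh and Ptch1. The members and lists were chosen with earlier results of these data known. Alternatives varied the pseudocount, filter, scaling, unit, variance model, threshold, gene set and libraries, with a correction for GC content and length. Exon coverage in place of TPM was added after seeing the data. Results for some listed genes are not reported here.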

Additional observations from a re-analysis of the deposited data

How the results depend on the processing

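The 5 tested Dlx genes kept a positive log2 fold change in every alternative that could be run, and none passed an adjusted p of 0.05 in any of them; with a mean TPM of at least 5, Dlx3 was not tested and 4 of 4 were higher. At an adjusted p of 0.10, 1 Dlx gene passed (Dlx1, 1.64). Over the alternatives, log2 fold changes ranged from 1.31 to 1.97 for Dlx1 (adjusted p 0.0594 to 0.222, limma), 0.35 to 1.17 for Dlx2 (0.185 to 0.581), 0.87 to 2.38 for Dlx3 (0.133 to 0.492), 1.35 to 2.74 for Dlx5 (0.101 to 0.301) and 1.45 to 2.63 for Dlx6 (0.0884 to 0.284). The ratio of Dlx3 to Dlx4 differed by 3.44 with a pseudocount of 0.1. Over all genes, 123 passed, against 69 with a pseudocount of 0.1, 858 at an adjusted p of 0.10, 73 with the GC content and length correction, 189 among protein-coding genes, 25 with exon coverage (an alternative chosen after seeing the data) and 0 without a filter, where 5011 of 28524 had an unadjusted p under 0.05. Leaving out 1 library gave 0 to 16 genes: 0 without Shh-/- 1, Shh-/- 2 or WT 4 (2800, 3761 and 3551 at an unadjusted p under 0.05) and 16 without WT 6, the lone pool being assumed to vary like the other group. Of the 13 other named genes that passed, all 13 lost the call without a filter and without any 1 library, 9 with exon coverage, 5 with a pseudocount of 0.1, 5 in eBayes without trend, 3 with the GC content and length correction and 1 with a mean TPM of at least 5, all in the same direction. The cause of these losses was not tested. Ece1 reversed with the GC content and length correction (-0.02), Bmp7 with quantile normalization (-0.06), median centring (-0.03), that correction (-0.16) and without WT 6 (-0.17; 0.36 without WT 4), and Maged1 with quantile normalization (0.03) and without Shh-/- 2 (0.06) or WT 4 (0.02). The median of all genes was 0.08, and -0.01 and -0.05 under quantile normalization and median centring. No paired analysis was possible because the groups share no replicate numbers. Depth limits Dlx4 and the WT values of Dlx3, which rest on few reads, and 2 pools per group limit every comparison.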
